A study of Mus musculus with 12 samples.

Results

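The miR-200 and miR-141 family comprises 5 miRNA hairpins of the mouse, mmu-mir-200a, mmu-mir-200b, mmu-mir-200c, mmu-mir-141 and mmu-mir-429 (named below without the species prefix), which were picked by name out of the 1050 hairpins that had reads in at least 1 of 12 small RNA libraries. Sperm libraries were made from C57BL6/J males that received, from 4 weeks of age and for 7 weeks, either a control diet (CD, 16% of kcal from fat, n = 3) or a high-fat diet (HFD, 69% of kcal from fat, n = 3), and each library pooled the sperm of 3 mice. The fat shares and the starting age are those of the labels, and the study's text gives a lower share for the same high-fat diet and, in a legend, a later start. The cell libraries came from TM4, a mouse Sertoli cell line, left untreated (Ctrl, n = 2), given Compound C, an inhibitor of the energy sensor AMPK, at 10 µM for 12 h (CC, n = 2), or overexpressing the ribonuclease angiogenin from a plasmid (Ang OE, n = 2). Ctrl was not stated to carry an empty plasmid, so the insert and the transfection cannot be told apart in Ang OE, and small RNA libraries do not measure the angiogenin transcript. Sperm were released from the cut epididymis into saline and pelleted, without a stated step to remove somatic cells, and the TM4 groups were all cultures of the same line. Nothing says that the 2 libraries of a TM4 group came from separate cultures, and p-values in TM4 therefore measure only the spread between these libraries.

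miRNAs of this family are known as markers of epithelia, where they bind the transcripts of the zinc-finger repressors Zeb1 and Zeb2 and so keep E-cadherin expressed. A miRNA finds its targets mainly by its seed, bases 2 to 8 counted from the 5′ end. The epididymis, in which sperm mature, is a duct lined by epithelium, and vesicles that its cells release carry small RNAs to sperm. Sertoli cells are the somatic supporting cells of the seminiferous tubule.

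The mature 3p sequences are shown because they divide the family into seed groups that cut across its genomic clusters, and because mir-200a and mir-141 are alike enough to share reads. The seed is in capitals, and all 5 sequences are from RefSeq on GRCm38.p6 (mm10).
mmu-miR-200b-3p: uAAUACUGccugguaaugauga
mmu-miR-200c-3p: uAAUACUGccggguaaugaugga
mmu-miR-429-3p: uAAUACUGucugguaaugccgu
mmu-miR-200a-3p: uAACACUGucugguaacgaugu
mmu-miR-141-3p: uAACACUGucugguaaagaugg
The first 3 carry the seed AAUACUG and the last 2 the seed AACACUG, which differ by a single substitution, U4C from miR-200b-3p to miR-141-3p. Among the mature mouse sequences of the same table, no other carried either seed. Positions 5 to 16 were the same 12 bases in miR-200a-3p, miR-141-3p and miR-429-3p, whereas miR-200b-3p differed from miR-429-3p there by C9U. G and C made up 36.4% of the bases of miR-200b-3p, 40.9% of miR-200a-3p, miR-141-3p and miR-429-3p each, and 43.5% of miR-200c-3p.

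By position the family forms a pair of clusters, both on the minus strand. On chromosome 4, mir-200b lies at chr4:156055681-156055750, mir-200a at chr4:156054896-156054985 and mir-429 at chr4:156053905-156053987, together 1846 bases inside the long non-coding RNA gene Gm13648. On chromosome 6, mir-200c lies at chr6:124718322-124718390 and mir-141 at chr6:124717914-124717985, together 477 bases between the protein-coding genes Phb2 and Ptpn6, 968 and 2316 bases away. In the newer GENCODE annotation of GRCm39, mir-200b and mir-200a fall in an intron and mir-429 in an exon of Gm13648, and the chromosome 6 hairpins fall in the non-coding gene Gm15884, mir-200c in an exon and mir-141 in an intron. The same annotation also places all 3 chromosome 4 hairpins in an intron of the protein-coding gene Ttll10, on the same strand, and mir-141 in an exon of Gm29008. Non-coding genes on the opposite strand overlap 4 of the 5 hairpins, Gm69145 for mir-200b and mir-200a and Gm66652 for mir-200c and mir-141. The deposited counts are per hairpin, so the 5p and 3p arms were not separated. The hairpins of mir-200a and mir-141 have 17 bases in a row in common, the only pair of the family with 15 or more, the shortest read length kept by the study, and no other hairpin of the 1004 each was compared with shared that many with a member. Reads were divided between equal matches: mir-200a and mir-141 each held part of a read in the same 5 libraries, and the other 3 members in none. Levels of mir-200a and mir-141 are therefore less certain than those of the others.

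All 5 members were abundant in sperm and at or near 0 in TM4. Together they took 0.895% to 1.43% of the miRNA reads of the 6 sperm libraries, which held 11412945 to 14822686 miRNA reads each over 737 to 802 hairpins. In the 6 TM4 libraries, with 27651384 to 35704399 miRNA reads each, they summed to 36 to 77 reads. Levels are given below in reads per 1000000 miRNA reads (CPM), a scale of shares, on which a hairpin can rise because others fall. In these bulk samples, fewer cells of a type and less RNA per cell cannot be told apart. No member had a read that failed to match the genome in any of the 12 libraries.

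mmu-mir-141, of the chromosome 6 cluster, was the highest member in every sperm library. Its level was 4250, 4322 and 3772 CPM in the 3 CD libraries and 2811, 5795 and 7737 CPM in the 3 HFD libraries. HFD replicate 1 was thus below all CD libraries and HFD replicates 2 and 3 above them. It ranked 16th to 31st of all hairpins. Its mean was 4114 ± 299 CPM in CD and 5448 ± 2481 CPM in HFD (SD, n = 3 each), a coefficient of variation of 7.26% against 45.5%.

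mmu-mir-200c, its neighbour on chromosome 6, was measured at 1348, 1701 and 1598 CPM in CD and 1923, 1214 and 1326 CPM in HFD. Here HFD replicate 1 was the highest of the 6 libraries and HFD replicates 2 and 3 the lowest, the reverse of mir-141. The means were 1549 ± 181.7 and 1488 ± 381 CPM (SD, n = 3 each).

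mmu-mir-200b, which shares the seed of mir-200c but sits on chromosome 4, was at 1721, 2361 and 2139 CPM in CD and 2591, 1698 and 2170 CPM in HFD. HFD replicate 1 was again the highest library and HFD replicate 2 the lowest, and the groups overlapped. Its means were 2074 ± 325 and 2153 ± 447 CPM (SD, n = 3 each).

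mmu-mir-200a, which shares the seed of mir-141, was at 1302, 1274 and 1146 CPM in CD and 923, 1658 and 1672 CPM in HFD. The HFD libraries lay on both sides of all 3 CD libraries, in the same places as for mir-141. Its means were 1241 ± 83.3 and 1417 ± 428 CPM (SD, n = 3 each).

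mmu-mir-429 was the lowest member in 5 of the 6 sperm libraries, at 660, 914 and 670 CPM in CD and 698, 907 and 1423 CPM in HFD. HFD replicate 3 alone exceeded every CD library, and there mir-429 passed mir-200c. The means were 748 ± 144 and 1009 ± 373 CPM (SD, n = 3 each). Counting error is small at these levels: the exact 95% interval of the lowest value, 660 CPM, ran from 646 to 673 CPM.

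**Figure D1:**
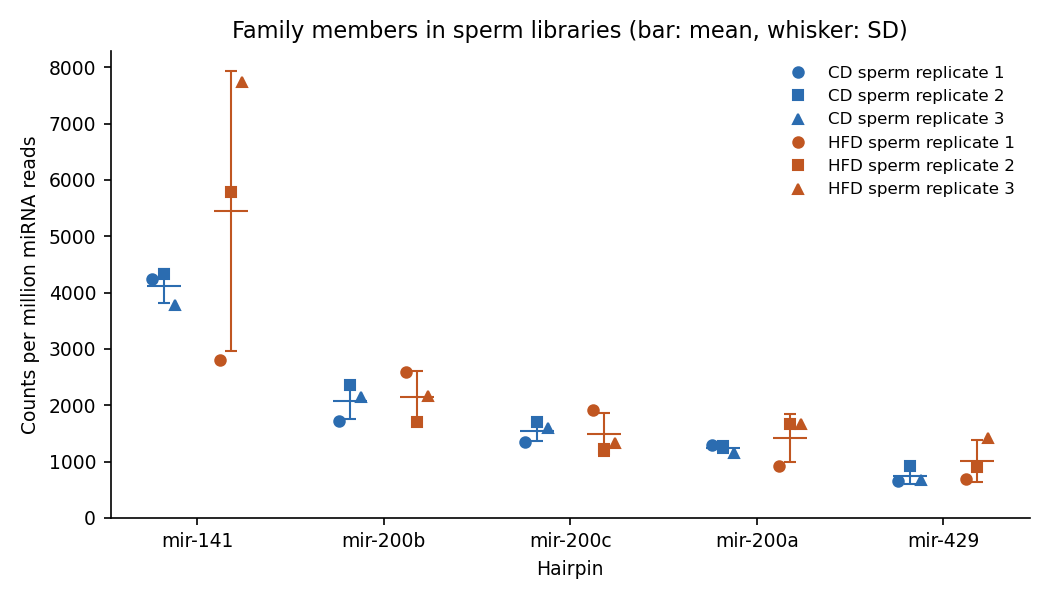
CPM (y axis) of the 5 members in the 3 CD (blue) and 3 HFD (orange) sperm libraries, with the mean as a bar and the SD as a whisker. mir-141 ran from 2811 to 7737 CPM, and for each member the HFD libraries overlapped the CD libraries.

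In the 3 CD libraries the order was the same, mir-141 above mir-200b, mir-200c, mir-200a and mir-429. No 2 neighbours in that order overlapped over the CD libraries, although mir-200b at its lowest, 1721 CPM, was close to mir-200c at its highest, 1701 CPM. In HFD the first 2 places and their members stayed, and mir-200a passed mir-200c in replicates 2 and 3. Hairpins differ in how well their ends ligate during library preparation, which was not measured here, so the order is one of reads and not of molecules.

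The question put to the sperm libraries was whether the diet altered the small RNA content. None of the 5 members passed edgeR's quasi-likelihood test between HFD and CD, and no hairpin did: 0 of 451 tested had an adjusted p under 0.05 (0%), 31 had an unadjusted p under 0.05, and DESeq2 called 8, none of them a member. The fitted log2 fold changes of HFD over CD were 0.30 ± 0.32 for mir-141 (SE), 0.33 ± 0.25 for mir-429, 0.09 ± 0.26 for mir-200a, −0.06 ± 0.18 for mir-200b and −0.17 ± 0.19 for mir-200c, each with an adjusted p of 0.989 by edgeR. Only the sign for mir-141 and mir-429 was the same in every alternative setting run. The median of all hairpins moved from −0.01 to 0.19 when the clean reads without rRNA set the library size, and with it the signs of mir-200b (0.14) and mir-200c (0.02). Without HFD replicate 1, mir-141 came to 0.70 and mir-429 to 0.63, both with an adjusted p of 0.193 by edgeR, and without HFD replicate 3 to 0.07 and 0.10, both with an adjusted p of 0.997. The summed family was 9281, 10573 and 9325 CPM in CD and 8946, 11272 and 14327 CPM in HFD, again with the HFD libraries on both sides of the CD libraries.

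**Figure D2:**
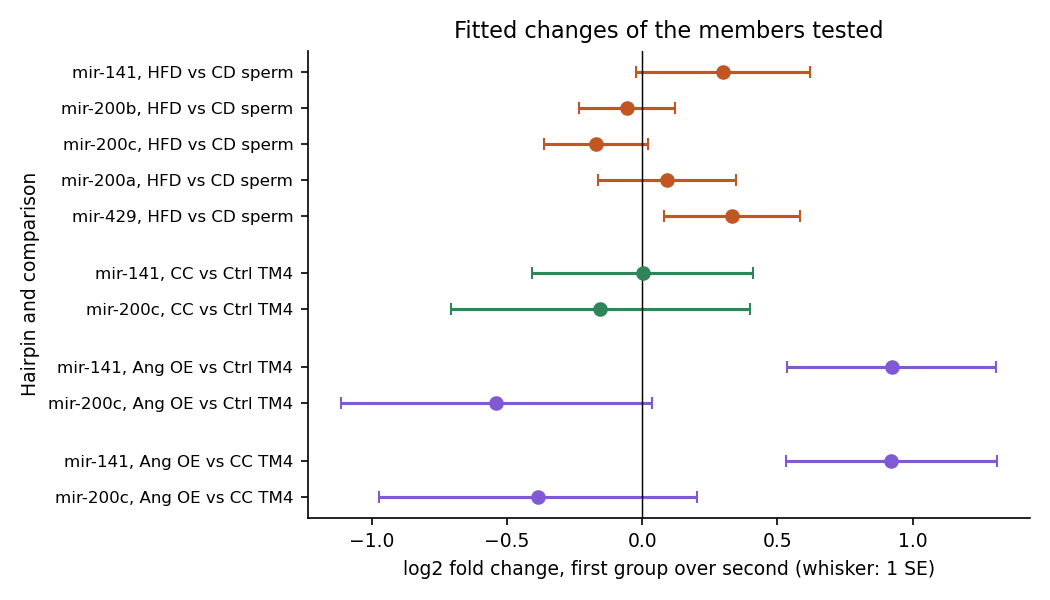
Fitted log2 fold changes (x axis) of the members tested between diets and among the TM4 groups, first group over second, with 1 SE as a whisker. The HFD over CD values lie between −0.17 and 0.33, and those of mir-141 are 0.92 in Ang OE over Ctrl and 0.92 over CC. The comparison of sperm with TM4 is not drawn.

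The members did not vary as 1 block over the sperm libraries, and they divided neither by cluster nor wholly by seed. The ratio of mir-141 to its cluster neighbour mir-200c was 3.15, 2.54 and 2.36 in CD and 1.46, 4.77 and 5.83 in HFD, a range of 3.99-fold over the 6 libraries. The ratio of mir-200a to its neighbour mir-200b was 0.757, 0.540 and 0.536 in CD and 0.356, 0.977 and 0.770 in HFD, a range of 2.74-fold. mir-141 stayed above mir-200c and mir-200b above mir-200a in every sperm library, and the size of the ratio varied.

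The pairs mir-200c with mir-200b and mir-141 with mir-200a, each with the same seed, held closer ratios. mir-429 did not do so with either member that has its seed. mir-200c to mir-200b was 0.783, 0.721 and 0.747 in CD and 0.742, 0.715 and 0.611 in HFD, a range of 1.28-fold, the narrowest of the 10 pairs. mir-141 to mir-200a was 3.26, 3.39 and 3.29 in CD and 3.05, 3.50 and 4.63 in HFD, a range of 1.52-fold. Both of these pairs join hairpins on different chromosomes. They are also the pairs whose 3p sequences differ least, at 2 of 22 positions compared. Reads can be divided between mir-141 and mir-200a, so that ratio is less certain. The part of the seed, of the other bases and of divided reads in these ratios was not tested. mir-429, although it has the seed of mir-200b and mir-200c, kept a narrower ratio to mir-141 (1.60-fold range) and mir-200a (1.68-fold) than to mir-200b (2.43-fold) and mir-200c (2.96-fold). In HFD, mir-141, mir-200a and mir-429 lay together, below their CD means in replicate 1 and above them in replicates 2 and 3. They are the members with the shared bases 5 to 16 shown above. The CD libraries did not hold this grouping throughout. There mir-429 lay below its CD mean with mir-200b and mir-200c in replicate 1, and with mir-141 and mir-200a in replicate 3. In CD the ratio of mir-429 to mir-200b was 0.383, 0.387 and 0.313, and that of mir-141 to mir-429 was 6.44, 4.73 and 5.63. The grouping was noticed in these values and was not tested. The AACACUG seed took 59.8%, 52.9% and 52.7% of the family's reads in CD and 41.7%, 66.1% and 65.7% in HFD, again with HFD on both sides of CD.

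**Figure D3:**
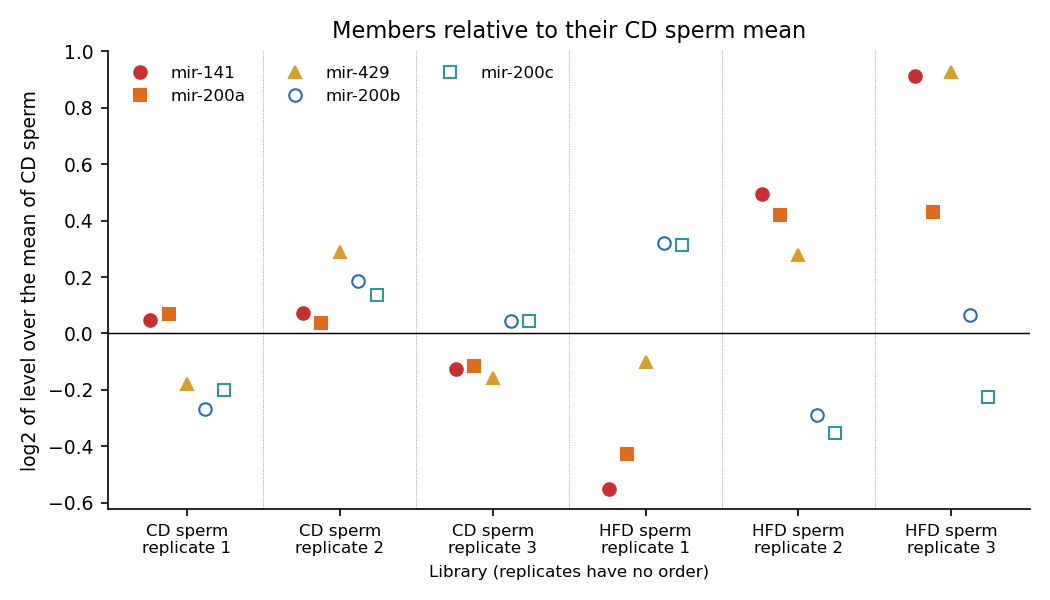
log2 of each member's level over its mean in CD sperm (y axis) in the 6 sperm libraries (x axis). In HFD replicate 1 mir-200b and mir-200c (open symbols) lie above 0 and mir-141, mir-200a and mir-429 (filled) below, and in HFD replicate 2 the order is turned.

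Measured as the SD of log2(CPM + 1) over the 6 sperm libraries, mir-141 varied by 0.51, mir-429 by 0.42, mir-200a by 0.33, mir-200c by 0.25 and mir-200b by 0.24. The median over the 257 hairpins with a mean of at least 100 reads in sperm was 0.27. mir-141, mir-429 and mir-200a lay above it, at percentiles 87.5, 81.3 and 63.8, and mir-200b and mir-200c just under it.

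Hairpins known from other cell types moved over the same libraries. The smooth muscle list, of which 6 of 7 names were found and all 6 had reads in every sperm library, summed to 50989, 42736 and 33628 CPM in CD and 30652, 52041 and 56169 CPM in HFD. The mesenchymal list (5 of 5) summed to 9470, 8243 and 8305 CPM in CD and 7191, 11554 and 12096 CPM in HFD. Both lists, like mir-141, were lowest in HFD replicate 1 and highest in HFD replicates 2 and 3. The list of 10 other epithelial hairpins, named below, had its lowest and highest sums in the same libraries. It summed to 33569, 32135 and 32153 CPM in CD and 31684, 34236 and 35464 CPM in HFD. The red blood cell list (4 of 4) ran from 26237 to 34490 CPM in CD and 25239 to 50595 in HFD, and the white blood cell list (5 of 6 names found) from 1286 to 1387 in CD and 1396 to 2181 in HFD, both highest in HFD replicate 1. The testis germ cell and sperm list (9 of 9 with reads in every sperm library) ran from 3690 to 10815 CPM in CD, highest in CD replicate 2, and from 3702 to 5371 CPM in HFD. The part of these cell types in the spread of mir-141 was not tested.

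In TM4 cells only mir-141 and mir-200c had reads in all 6 libraries. mir-141 had 22 and 33 reads in Ctrl, 33 and 17 in CC, and 51 and 38 in Ang OE. Both Ang OE libraries were above all 4 others in reads. In CPM these are 0.781 and 0.924 in Ctrl, 1.08 and 0.615 in CC, and 1.58 and 1.13 in Ang OE, which do not overlap Ctrl or CC either, although the exact 95% counting intervals of Ang OE replicate 2 (0.798 to 1.55 CPM) and of Ctrl replicate 2 (0.636 to 1.30 CPM) do.

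mir-200c had 14 and 31 reads in Ctrl, 17 and 19 in CC, and 20 and 6 in Ang OE, or 0.497 and 0.868, 0.558 and 0.687, and 0.618 and 0.178 CPM. The Ang OE libraries held both a value inside the range of Ctrl and the lowest value of all, so the groups overlapped.

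The chromosome 4 members were scarcer. mir-200b had 0 and 3 reads in Ctrl, 6 and 1 in CC, and 3 and 5 in Ang OE. mir-429 had 2 reads in Ctrl replicate 2, 3 in CC replicate 1 and 0 in the other 4 libraries. mir-200a had 3 reads in Ang OE replicate 1 and 0 in the other 5. A count of 0 in Ctrl was read against a floor of 3 reads, which is 0.107 CPM in replicate 1 and 0.0840 CPM in replicate 2, and the exact 95% intervals of these counts, which cover both sides, reach 0.131 and 0.103 CPM. These 3 members failed the minimum of 10 reads in 2 libraries and were not tested among the TM4 groups.

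**Figure D4:**
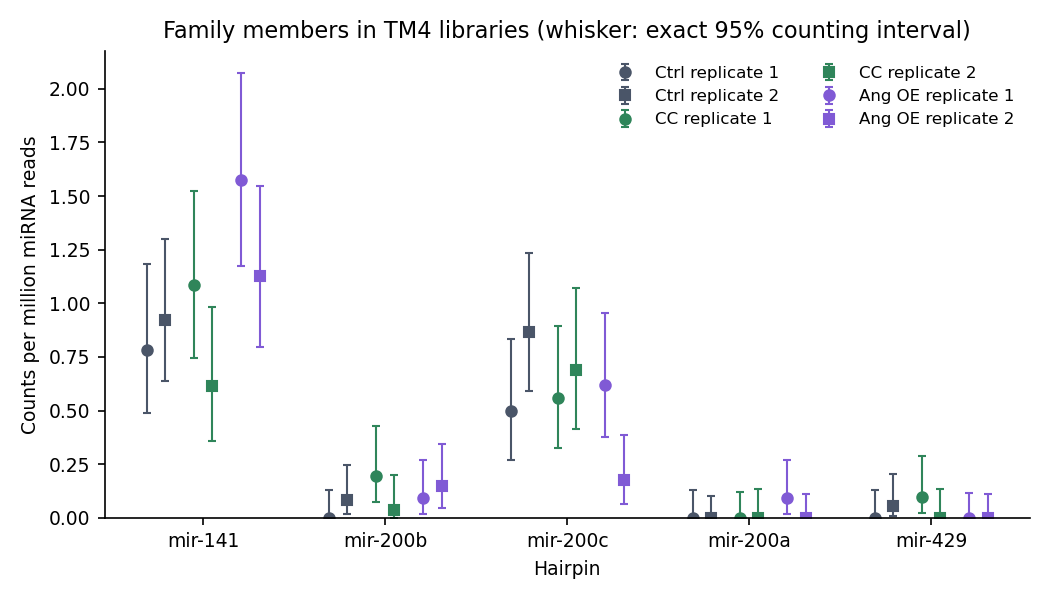
CPM (y axis) of the 5 members in the 6 TM4 libraries, 2 each of Ctrl (grey), CC (green) and Ang OE (purple), with exact 95% counting intervals. mir-141 lies between 0.615 and 1.58 CPM, and mir-200a has reads in 1 library only.

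Compound C was compared with Ctrl to ask what AMPK inhibition does to the small RNAs of Sertoli cells. Neither tested member was called: the log2 fold change was 0.0017 ± 0.41 (SE) for mir-141 and −0.15 ± 0.55 for mir-200c, with adjusted p of 0.999 and 0.928 by edgeR, where 22 of 533 hairpins were called (4.13%). These values rest on 14 to 33 reads per library, and changes within their errors could not be detected. Of the red blood cell list, 2 of 3 tested hairpins were called lower in CC. That list summed to 1879 to 1956 CPM in CC and 2737 to 2857 CPM in Ctrl. No tested hairpin of the smooth muscle, mesenchymal, white blood cell or testis germ cell and sperm list was called.

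Angiogenin overexpression was compared with the same Ctrl libraries and with CC, which share libraries and so are not independent of each other. Against Ctrl, mir-141 had a log2 fold change of 0.92 ± 0.39 (SE) with an adjusted p of 0.0690 by edgeR, and mir-200c one of −0.54 ± 0.58 with an adjusted p of 0.481. Against CC, mir-141 had 0.92 ± 0.39 with an adjusted p of 0.0673 by edgeR, and mir-200c −0.39 ± 0.59 with an adjusted p of 0.622. No member was therefore called, while 204 of 533 hairpins (38.3%) were called against Ctrl and 221 (41.5%) against CC. mir-141 lay near the threshold. Without the filter on low counts, where 206 and 223 of 877 hairpins were called, its adjusted p by edgeR was 0.0359 against Ctrl and 0.0447 against CC. After ComBat-seq, where 282 and 292 of 547 were called, it was 0.0335 and 0.0275. Over all alternatives its adjusted p ran from 0.0335 to 0.341 against Ctrl and from 0.0275 to 0.353 against CC. The value against CC also passed with the replicate number as a block (0.0419) and without CC replicate 1 (0.0438, log2 fold change 1.38). It came to 0.57 without CC replicate 2 and 0.61 without Ang OE replicate 1, with adjusted p of 0.285 and 0.353 by edgeR. Where a fit leaves out a TM4 library, the lone library of that group is assumed to vary like the other groups. Without Ang OE replicate 2 the sign of mir-200c turned, to 0.05 against Ctrl and 0.21 against CC. The lists of other cell types differed in how they stood in Ang OE, where 38.3% of all hairpins were called. The smooth muscle list summed to 94556 to 129039 CPM in Ang OE and 49715 to 55567 CPM in Ctrl, with 2 of 4 tested called higher, but the median log2 fold change of the 4 was −0.50 beside 0.06 over all hairpins. The mesenchymal list summed to 123238 to 132165 and 80979 to 82467 CPM (2 of 5 higher, 1 lower), and the testis germ cell and sperm list to 1932 to 2045 and 1017 to 1050 CPM (4 of 5 tested higher). The red blood cell list was lower, at 1762 to 1784 and 2737 to 2857 CPM (2 of 3 tested lower), and the white blood cell list overlapped, at 1248 to 1441 and 1321 to 1323 CPM (1 of 4 tested higher). Their part in the values of mir-141 and of the epithelial list was not tested.

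CD sperm was set against Ctrl TM4 cells to place the levels of the family in both samples, a contrast of a tissue with a cell line whose libraries were also deeper. mir-141, at 55 reads in Ctrl in all, was higher in sperm by a log2 fold change of 13.55 ± 0.25 (SE, adjusted p = 2.87e-09 by edgeR), and mir-200c, at 45 reads, by 12.44 ± 0.30 (adjusted p = 1.00e-08 by edgeR), higher in 3 of 3 sperm libraries. In this comparison 455 of 590 hairpins were called (77.1%), and the median of all hairpins moved from −0.13 to −1.47 when the miRNA reads set the library size, which put mir-141 at 12.22 and mir-200c at 11.11. For the chromosome 4 members, which passed the filter only through sperm, the reads are compared directly. mir-200b had 79506 reads in the 3 CD libraries and 3 in the 2 Ctrl libraries, a CPM ratio of 43718 with an exact 95% counting interval from 14959 to 211998. mir-429 had 28577 reads against 2, a ratio of 23571 (6524 to 194639). mir-200a was at 0 in both Ctrl libraries and was at least 26402-fold higher in sperm, against the floor of 3 reads over the group. The chromosome 6 cluster thus left more reads in TM4 than the chromosome 4 cluster, 100 against 5 in Ctrl, 86 against 10 in CC and 115 against 11 in Ang OE, whereas in CD sperm it held 58.3% ± 1.78 of the family's reads (SD, n = 3).

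Of a list of 10 other hairpins associated with epithelia, some shared this distribution and others did not. mir-375, known from endocrine and secretory epithelia, was at 4516 to 6675 CPM in sperm and 0.148 to 0.615 CPM in TM4. mir-205, of stratified epithelia, was at 895 to 1347 CPM and 0.434 to 2.49 CPM, and mir-203, of skin, at 224 to 339 CPM and 0.361 to 1.48 CPM. mir-192 and its partners mir-194-1 and mir-194-2, of gut and kidney epithelium, were also higher in sperm, by log2 fold changes of 3.52, 2.73 and 2.48 over Ctrl. The log2 fold changes of mir-192, mir-194-1 and mir-194-2 came to 2.18, 1.40 and 1.15 with miRNA reads as library size. With clean reads without rRNA they came to 1.95, 1.16 and 0.92. All were called in both settings, beside 536 and 541 of 590 hairpins, whose medians were −1.47 and −1.71.

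The remaining 4 were plentiful in TM4. mir-31 was at 29.1 to 60.7 CPM in sperm and 3778 to 5617 CPM in TM4, and mir-183 at 1070 to 1339 CPM and 15487 to 27033 CPM, both lower in CD sperm than in Ctrl by the test (log2 fold changes −5.54 and −2.62, or −6.85 and −3.95 with miRNA reads as library size). mir-182 and mir-96, which are made from the same cluster as mir-183, did not pass the main test, and their direction differed between the scales. Their CPM was higher in every TM4 library than in any sperm library, but their TMM-scaled log2 fold changes of sperm over Ctrl were 0.27 and 0.20. These turned to −1.08 and −1.14 with miRNA reads as library size, where both were called lower (adjusted p of 4.21e-05 and 0.000385 by edgeR). In that setting 536 of 590 hairpins were called, 342 of them lower, and the median of all hairpins was −1.47. mir-182 and mir-96 were also called lower with clean reads without rRNA (541 of 590 hairpins called). Without Ctrl replicate 1 or 2 their log2 fold changes were −0.53 and −0.68 for mir-182 and −0.65 and −0.70 for mir-96. In contrast, mir-96 was called higher by DESeq2 (adjusted p = 0.0328, 431 of 590 called). mir-182 was called higher with a minimum of 100 reads (adjusted p = 0.0168 by edgeR, 308 of 382 called). No direction can be given for this pair. Of the 10, 6 were called higher and 2 lower in CD sperm under TMM scaling, beside 77.1% of all hairpins called. Their median log2 fold change was 2.60, beside −0.13 over all hairpins tested. On the CPM scale the sum of the 10 was lower in sperm (31684 to 35464 CPM) than in TM4 (61980 to 89317 CPM). Called higher in CD sperm were also 9 of 9 of the testis germ cell and sperm list and 4 of 4 of the red blood cell list. So were 5 of 6 of the smooth muscle list and 4 of 5 of the white blood cell list, with 1 lower. All 5 of the mesenchymal list were lower. Some of these hairpins passed the filter only through sperm.

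**Figure D5:**
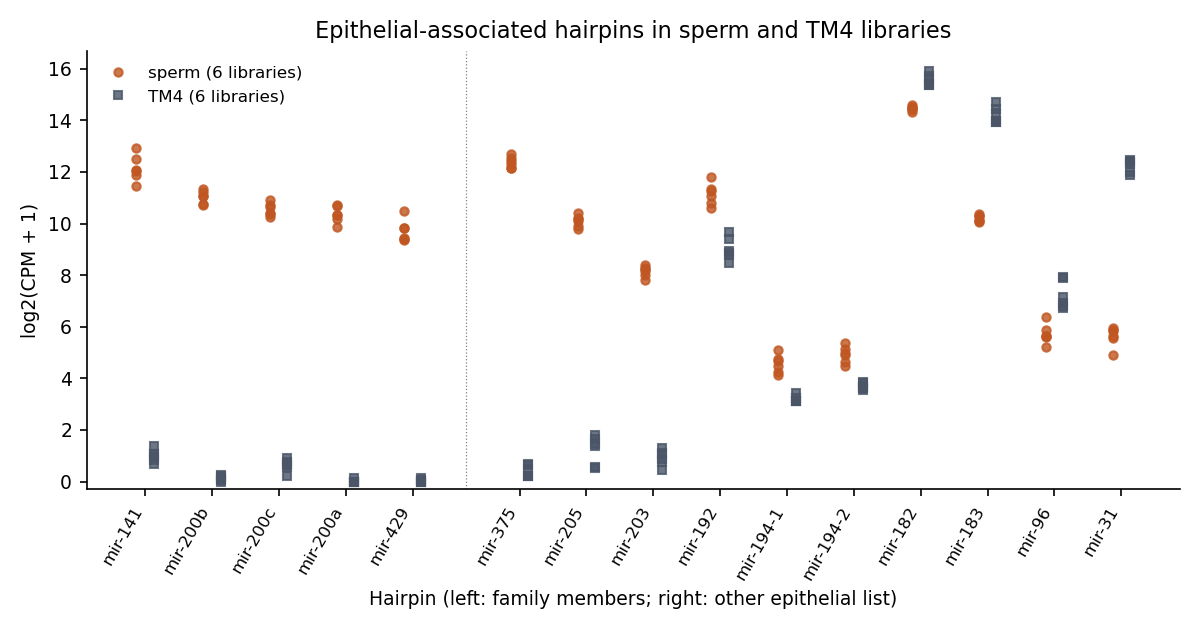
log2(CPM + 1) (y axis) of the 5 members and the 10 other hairpins of the epithelial list (x axis) in 6 sperm (orange circles) and 6 TM4 libraries (grey squares), 1 point per library. mir-375, mir-205 and mir-203 lie near 0 in TM4 as the members do. mir-182, mir-183, mir-96 and mir-31 are higher in TM4 than in sperm on this scale, a direction that turns for mir-182 and mir-96 under TMM scaling.

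Within sperm none of the 10 was called between diets, with a median log2 fold change of 0.02. In TM4, 1 of 10 was higher and 1 lower in CC than in Ctrl (4.13% of all hairpins called), mir-183 by 0.48 ± 0.11 and mir-205 by −2.11 ± 0.35 on the log2 scale (SE, adjusted p of 0.0220 and 0.00379 by edgeR). Without CC replicate 1 or CC replicate 2 neither was called, in fits that leave CC with 1 library and take the spread from the other groups, with adjusted p of 0.0693 and 0.320 for mir-183 and 0.0585 and 0.0871 for mir-205 by edgeR, and no hairpin of the whole table was. The log2 fold changes were then 0.58 and 0.34 for mir-183 and −2.23 and −2.01 for mir-205. The call of mir-183 was also lost after ComBat-seq (log2 fold change 0.48, adjusted p of 0.0635 by edgeR) and without Ctrl replicate 2 (0.34, adjusted p of 0.258). In Ang OE, 2 of 10 were higher than in Ctrl and none lower (38.3% of all hairpins called), mir-96 by 1.43 ± 0.12 and mir-192 by 0.96 ± 0.13 (adjusted p of 1.27e-07 and 1.75e-05 by edgeR). Against CC, where 41.5% of all hairpins were called, 4 were higher in Ang OE (mir-192, mir-194-1, mir-205 and mir-96) and 1 lower (mir-183), with log2 fold changes of 1.13, 0.43, 2.31, 1.13 and −0.37. The call of mir-194-1 was lost in 9 of its 15 alternatives, where its adjusted p ran from 0.0123 to 0.443 over edgeR and DESeq2. Its log2 fold change was 0.17 with miRNA reads as library size, 0.21 without Ang OE replicate 1, and 0.40 and 0.43 without CC replicates 1 and 2. The call of mir-183 against CC was lost without CC replicate 2 (log2 fold change −0.23, adjusted p of 0.209 by edgeR).

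The hairpins whose profile was most like that of the summed family, by the root mean square difference of log2(CPM + 1) after each profile was centred on its mean, were chosen from 252 with a mean of at least 100 reads in sperm. Over all 12 libraries they were mir-375 (0.33), mir-204 (0.47), mir-451a (0.87), mir-871 (1.27) and mir-205 (1.60), all of them high in sperm and at or under 2.49 CPM in TM4. Over the 6 sperm libraries alone they were let-7g (0.04), mir-872, mir-27b, mir-29a and mir-497a (0.09 each), which are not low in TM4. let-7g has near-identical relatives with which it can share reads, so its level is uncertain.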

How the data were processed

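The authors trimmed the reads and counted them with the SPORTS pipeline, which divides a read among equal matches, and deposited per library the estimated counts (expected counts) of every annotated RNA on mm10. Genome-matched and unmatched miRBase miRNA reads were added per hairpin, giving 11412945 to 14822686 miRNA reads per library in sperm and 27651384 to 35704399 in TM4, the denominators of CPM. Counts were rounded and tested over all hairpins with edgeR 4.0.16 (quasi-likelihood, TMM, Benjamini-Hochberg adjustment). A hairpin entered a fit if 3 sperm libraries, or 2 in the other fits, each held 10 reads or more. The 3 TM4 groups were fitted together, and the script was tested on simulated data. All 5 members are named, with the 5 hairpins most like them and the whole epithelial list. Members and lists were chosen with earlier results of these data known. ComBat-seq, named in the methods for the cell lines, was run as an alternative with the replicate number as batch, since no batches were named. Alternatives also used DESeq2 1.42.0, other library sizes and other filters. Counting intervals are exact, at 95%, and cover counting error only.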

Additional observations from a re-analysis of the deposited data

How the results depend on the processing

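Between diets, no member was called in any of the 13 alternatives. The log2 fold change of mir-200b turned to 0.054 with miRNA reads as library size, 0.14 with clean reads without rRNA and 0.0052 with a minimum of 100 reads, and that of mir-200c to 0.021 with clean reads without rRNA. Leaving out a library gave −0.11 to 0.059 for mir-200b, −0.11 to 0.41 for mir-200a, −0.29 to −0.03 for mir-200c, 0.07 to 0.70 for mir-141 and 0.10 to 0.63 for mir-429. The summed family was 0.24 higher in HFD on the log2 CPM scale (0.06 to 0.40 without a library, 0.34 per clean read without rRNA).

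In CC against Ctrl no member was called in any alternative. mir-141, at 0.0017, turned to −0.0035 with miRNA reads as library size, −0.040 with a replicate block, −0.00050 with the 2 compared groups alone and −0.066 after ComBat-seq, and ran from −0.51 to 0.35 without a library. mir-200c ran from −0.49 to 0.34. In Ang OE against Ctrl, 1 member, mir-141, was called without a filter and after ComBat-seq, and against CC also with the replicate block. Of all hairpins, 206 of 877 and 282 of 547 were called in these settings against Ctrl. Against CC they were 223 of 877, 292 of 547 and, with the block, 243 of 533. Leaving out a library gave 0 to 1 members called against CC. mir-141 then ran from 0.62 to 1.09 against Ctrl and from 0.57 to 1.38 against CC. mir-200c ran from −1.72 to 0.050 against Ctrl and from −1.57 to 0.21 against CC. With a minimum of 100 reads no member was left to test in TM4. For CD sperm over Ctrl, mir-141 and mir-200c were called in all 11 alternatives. Of all hairpins 77.1% were called in the main fit, 575 of 1000 without a filter and 541 of 590 with clean reads without rRNA. The summed family, 12.56 on the log2 CPM scale, ran from 12.30 to 12.89 without a library. For the epithelial list the same alternatives were added after seeing the data. Over Ctrl, mir-96 and mir-182 turned in CD sperm to −1.14 and −1.08 with miRNA reads as library size, −1.38 and −1.31 with clean reads without rRNA and −0.44 and −0.37 without a filter, and ran from −0.70 to 0.17 and −0.68 to 0.19 without a library. The cause of these turns was not tested.

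Whether the replicate numbers pair the samples could not be settled. Same-numbered libraries had correlations of deviations of −0.35, −0.24 and 0.07 in sperm, where different-numbered ones ran from −0.35 to 0.39. In TM4 the same-numbered values were −0.02 and −0.10 between Ctrl and CC or Ang OE, and 0.16 between CC and Ang OE. With 2 libraries per group these values only change sign for different numbers, and so cannot decide. The replicate block left 0 of 451 hairpins called in sperm and moved the counts in TM4 from 22 to 35, 204 to 222 and 221 to 243. Counts over all hairpins moved by over 1.5 times between diets with DESeq2 (8 called), and in CC against Ctrl after ComBat-seq (35) and without either CC library (0 each). Calls higher and lower changed from 129 and 75 to 81 and 139 in Ang OE against Ctrl, from 140 and 81 to 83 and 143 against CC, and the share of calls that were higher from 52.7% to 36.2% in CD sperm against Ctrl, when miRNA reads set the library size. Few reads limit the statements on the members in TM4.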
